A study of Mus musculus with 21 samples.

Results

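The 47 genes described here are those of the NRF2, glutathione and antioxidant system in mouse liver. They were chosen by name, and earlier results of these data were known when the list was made. By role they comprise 5 regulators, heme and epoxide enzymes, 5 genes of glutathione synthesis and recycling and 17 glutathione transferases. The rest are 5 genes of the thioredoxin system, 11 enzymes of peroxide and superoxide removal and 4 enzymes of NADPH supply. All 47 had probes on the array, among 35019 named genes, and 46 were bright enough to be tested among 19716 tested genes. The exception was Slc7a11, the cystine importer, whose probe was well above background in 0 of 21 livers.

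The livers came from adult male C57BL/6J mice, an inbred strain known to lack a working Nnt gene, a mitochondrial source of NADPH. All mice first ate a normal-fat diet for 3 weeks, then a high-fat diet for 12 weeks, and fasted for 2 to 4 hours before sampling. The 11 mice of the HF group had no supplement in the high-fat diet, and the 10 mice of the HF-Q group had 0.33% (w/w) of quercetin, a plant flavonol, in the same diet. Both groups therefore carried the high-fat diet, and no group stayed on normal fat. Each array compared 1 liver, in the red dye Cy5, with an equimolar pool of all livers, in the green dye Cy3, and a level below is the log2 ratio of liver to pool. Dyes were not swapped, so the distance of both groups from the pool cannot be told apart from a dye effect, and only differences between livers are read.

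NRF2, encoded by Nfe2l2, is a transcription factor that KEAP1 holds in the cytoplasm and directs to degradation. Electrophiles and oxidants modify KEAP1, NRF2 then accumulates in the nucleus, and with small MAF proteins it binds antioxidant response elements near genes for glutathione synthesis, conjugation, thioredoxin and NADPH production. Much of this regulation acts on the protein, so the Nfe2l2 transcript is not a measure of NRF2 activity. Liver has a high content of glutathione and of glutathione transferases, which conjugate it to reactive compounds.

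On each array 44.2% to 51.3% of probes had a Cy5 signal well above background, and none of the arrays duplicated another. They were spread over 3 slides, each with livers of both diets. Slide 1 carried 3 HF and 4 HF-Q livers, slide 2 carried 4 HF and 2 HF-Q, and slide 3 carried 4 of each. Differences and correlations given within a slide rest on no more livers than these. All 46 tested members were well above background on all 21 arrays and none had a saturated spot. All 7 hepatocyte markers were measured, and their mean log2 ratio ranged from 0.0103 to 0.38 in HF and from -0.14 to 0.41 in HF-Q livers. Of 9 pancreatic acinar markers 4 were measured, and their mean was 1.84 and 2.51 in HF replicates 5 and 11, against -0.16 or less in the other 19 livers. In whole liver, fewer cells of a type and less RNA per cell cannot be told apart.

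The first question is whether quercetin altered the expression of this system on a high-fat diet. None of the 46 tested members passed an adjusted p of 0.05 by limma's moderated test over all genes, and neither did any of the 19716 genes (0%). The lowest adjusted p of a member was 0.737. The unadjusted p was under 0.05 for 4 members (8.7%), against 1173 genes or 5.95% of all genes tested. Prdx4 was higher in HF-Q, and Prdx6, Nfe2l2 and Gstm2 were lower. The background in each direction was 3.01% of genes higher and 2.94% lower, so the total is near what all genes gave.

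The sizes were small. Over the 46 members 18 were higher and 28 lower in HF-Q (60.9% lower, against 53.1% of all genes), with a median log2 fold change of -0.021 against -0.00445 over all genes. For 37 members the difference was under 0.1 on the log2 scale in either direction. For 37 members the 95% confidence interval lay wholly between -0.25 and 0.25, so these data bound a difference for them at that size. The groups overlapped for all 46 members. The share over all genes was not computed, so this is not read as particular to the members. By role, the median was -0.035 for regulators, heme and epoxide enzymes, -0.00701 for glutathione synthesis and recycling, 0.00597 for the transferases, -0.026 for the thioredoxin system, -0.024 for peroxide and superoxide removal and -0.027 for NADPH supply. These signs depend on the scaling. With median centring in place of loess, 37 members were higher and 9 lower with a median of 0.042, while the share of all genes that were lower went from 53.1% to 34.4% and their median to 0.024. With the deposited values 29 members were higher, with a median of 0.021.

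**Figure D1:**
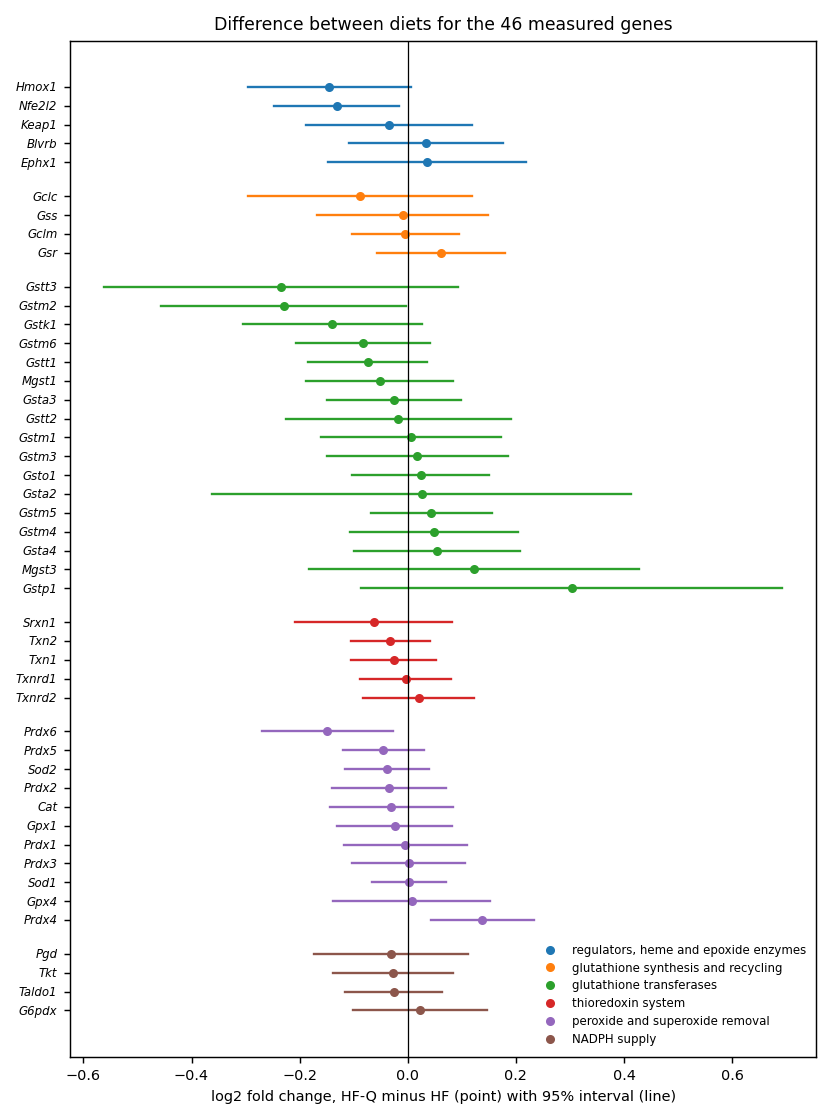
Difference between diets for each of the 46 tested members, grouped by role, as the log2 fold change of HF-Q minus HF (points) with its 95% confidence interval (lines). The interval crosses 0 for 42 members, and it is widest for Gstp1, Gsta2 and Gstt3.

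The element that NRF2 binds has the core TGACNNNGC, in which N is any base. This core was searched on both strands of RefSeq promoter windows (GRCm38.p6) from 250 bases before to 50 after a transcription start. It was found in the windows of 11 of 41 members with a window (26.8%), against 14.0% of 27025 genes. Those members were Nfe2l2, Gclm, Gsta3, Gstm5, Mgst1, Txnrd1, Srxn1, Prdx1, Sod1, G6pdx and Pgd. Hmox1, Gclc, Gsr, Gsta4, Gstt2 and Prdx6 had no window to search. A match describes letters only, and elements farther from the start lie outside the windows. The 4 stretches below carry the core in Nfe2l2 itself, in 2 members whose levels are followed below as established NRF2 targets, and in Prdx1, another such target. They are written 5′ to 3′ on the strand of the gene, with the core in capitals, which reads GCNNNGTCA where it lies on the opposite strand.
Nfe2l2, chr2:75704854-75704913, minus strand: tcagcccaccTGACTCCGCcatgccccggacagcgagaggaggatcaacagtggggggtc
Gclm, chr3:122245398-122245457, plus strand: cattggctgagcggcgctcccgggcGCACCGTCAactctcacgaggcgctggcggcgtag
Txnrd1, chr10:82859089-82859148, plus strand: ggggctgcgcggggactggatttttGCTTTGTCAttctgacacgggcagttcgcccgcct
Prdx1, chr4:116685441-116685500, plus strand: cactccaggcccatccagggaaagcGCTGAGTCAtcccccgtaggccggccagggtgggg
The core began 240, 134, 92 and 133 bases before the start in that order.

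Among the regulators, Nfe2l2 itself had the lowest p. Its probe lies at chr2:75513771-75513830 of build mm9. The level was -0.28 in the lowest HF liver, -0.13 at the median and 0.074 in the highest, and -0.39, -0.26 and 0.0298 in HF-Q. In HF-Q 8 of 10 livers lay below the HF median and 4 lay below every HF liver, while HF-Q replicates 5 and 6 were as high as the middle of the HF group or higher. The means were -0.0992 ± 0.115 (SD, n = 11) in HF and -0.23 ± 0.145 (SD, n = 10) in HF-Q. The log2 fold change was -0.13 ± 0.056 (SE), or 1.1-fold lower (limma p = 0.0277, adjusted p = 0.807). Within slides 1, 2 and 3 it was -0.12, -0.037 and -0.22, and the unadjusted p was 0.05 or more when any of 5 of the 21 livers was left out (highest 0.0575).

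Keap1, the repressor of NRF2, ranged from -0.22 to 0.23 in HF (median 0.067) and from -0.35 to 0.24 in HF-Q (median 0.062). The 2 medians nearly coincide and the ranges cover each other. The log2 fold change of -0.035 ± 0.074 (SE) was within the spread, and it was 0.098 within slide 2. In both diets Keap1 was mostly higher at low replicate numbers. It was 0.206 in HF replicate 1 and -0.22 in HF replicate 11, and 0.116 in HF-Q replicate 1 and -0.35 in HF-Q replicate 10. This order was seen in the values and was not tested.

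Hmox1, heme oxygenase, breaks heme down to biliverdin and is a classical NRF2 target. Its level was lowest at -0.21, had a median of 0.17 and reached 0.34 in HF, and was -0.44, 0.00165 and 0.23 in HF-Q. In HF-Q 9 of 10 livers lay below the HF median, yet the groups overlapped over most of their range. This gave a log2 fold change of -0.15 ± 0.073 (SE; limma p = 0.0597, adjusted p = 0.858). A second Hmox1 probe, some distance away in the same gene (chr8:77620797-77620856 against chr8:77624207-77624266, mm9), gave 0.00142 ± 0.051, so the probes disagree.

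Blvrb, which reduces biliverdin and flavins, and Ephx1, the microsomal epoxide hydrolase, had group means that differed by less than the spread. Their SD was numerically larger in HF-Q, a difference that was not tested. Blvrb had an SD of 0.0714 in HF and 0.229 in HF-Q, and Ephx1 0.107 and 0.293. Both had their highest level in HF-Q replicate 7 (0.30 and 0.59) and their lowest in HF-Q replicate 3, so the wider HF-Q range rests on livers at both ends. Other members had the larger SD in HF, such as Pgd (0.219 in HF, 0.0724 in HF-Q) and Gsta3 (0.169 and 0.102).

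**Figure D2:**
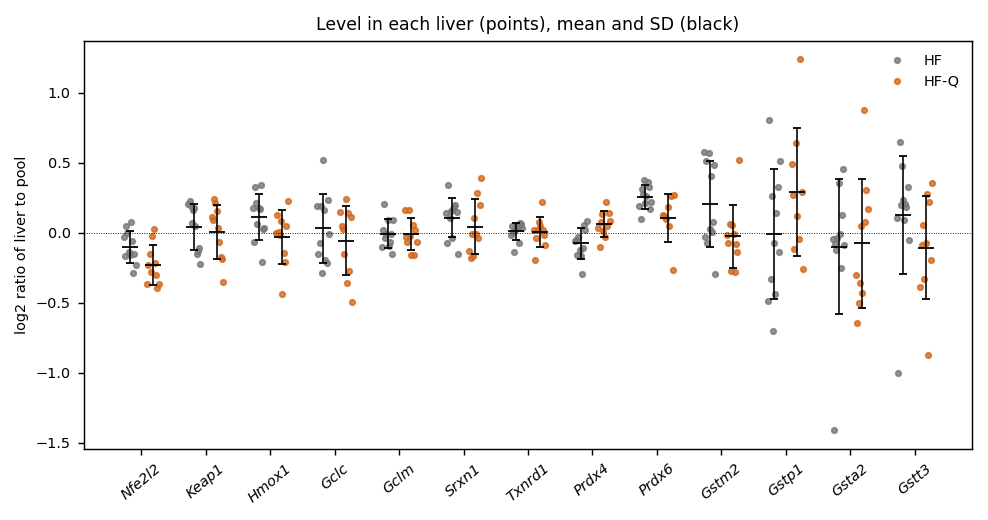
Level of 13 members in each of the 11 HF (grey) and 10 HF-Q (orange) livers, as the log2 ratio of liver to pool, with group mean and SD in black. The groups overlap for every gene, and single livers lie far out for Gsta2, Gstt3 and Gstp1.

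Glutathione is made in a first step by glutamate-cysteine ligase, whose catalytic and modifier subunits are Gclc and Gclm, and a second by Gss, and is regenerated from its oxidized form by Gsr. Gclc varied most of these genes, from -0.29 to 0.52 in HF (median -0.00678) and from -0.50 to 0.24 in HF-Q (median 0.04). Its highest liver was HF replicate 6 and its lowest HF-Q replicate 10, and the rest of both groups lay across each other. Between the diets the log2 fold change was -0.0885 ± 0.1 (SE), and -0.0395 without HF-Q replicate 10.

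Gclm lay between -0.15 and 0.20 in HF (median -0.00949) and between -0.16 and 0.16 in HF-Q (median -0.023). The groups share nearly 1 range. Between the diets the log2 fold change was -0.00449 ± 0.048 (SE), with a 95% interval from -0.10 to 0.095, and its sign turned under 6 alternatives and with several single livers left out.

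Gsr had the lowest p of the role and was nominally higher in HF-Q. It lay between -0.16 and 0.17 in HF (median 0.036) and between -0.11 and 0.40 in HF-Q (median 0.0399). HF-Q replicates 7 and 9 lay above every HF liver and the other 8 were within the HF range. HF-Q differed from HF by 0.062 ± 0.057 (SE; limma p = 0.291, adjusted p = 0.975), and it was 0.026 without HF-Q replicate 7. Gss had nearly equal means, 0.103 and 0.0937, but an SD of 0.0833 in HF and 0.256 in HF-Q, where 4 livers lay above and 3 below all HF livers.

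The 17 glutathione transferases conjugate glutathione to electrophiles, and they come in cytosolic alpha (Gsta), mu (Gstm), pi (Gstp), theta (Gstt) and omega (Gsto) classes, with mitochondrial and peroxisomal Gstk1 and the membrane-bound Mgst1 and Mgst3. Of the 17, 9 were higher and 8 lower in HF-Q, and 1 had an unadjusted p under 0.05. They held the widest variation between livers of all roles. The SD over the livers with a value (19 to 21) ran from 0.125 to 0.475 in this role, against 0.0532 to 0.245 over the members of the other roles. Several are close relatives in sequence, and cross-hybridisation between them was not tested.

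Gstm2 had the lowest p among them. Its level was -0.29, 0.075 and 0.57 at the lowest, median and highest in HF, and -0.28, -0.046 and 0.52 in HF-Q. In HF 5 livers lay between 0.41 and 0.57 and 6 at 0.075 or less, while 9 of 10 HF-Q livers lay at 0.063 or less and replicate 10 reached 0.52. HF-Q differed from HF by -0.23 ± 0.11 (SE), or 1.17-fold lower (limma p = 0.0477, adjusted p = 0.835), and -0.15, -0.27 and -0.26 within slides 1, 2 and 3. Its other 2 probes gave -0.21 and -0.14. The p was under 0.05 in 8 of 21 fits that each left out a liver.

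Gstp1, the pi-class enzyme, had the largest difference of any member and the largest spread, an SD of 0.475 over the livers. It ran from -0.70 to 0.81 in HF (median -0.071) and from -0.26 to 1.24 in HF-Q (median 0.27, n = 9, since 1 spot was left out). HF replicate 2 and HF-Q replicate 7 were the highest of their groups, and 4 HF livers lay below every HF-Q liver. HF-Q exceeded HF by a log2 fold change of 0.30 ± 0.19 (SE; limma p = 0.121, adjusted p = 0.919), with 0.36 at a second probe. It was 0.19 without HF-Q replicate 7 and 0.39 without HF replicate 2. As each was the highest of its group for this gene, the direction of these shifts follows from the choice, and no p is given.

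Gsta2, an alpha-class enzyme, was spread from -1.41 to 0.46 in HF (median -0.041) and from -0.64 to 0.88 in HF-Q (median -0.12). The lowest was HF replicate 2, more than 1 log2 unit below the next HF liver, and the highest was HF-Q replicate 7. With all livers the log2 fold change was 0.025 ± 0.19 (SE). Without both of these livers it was -0.21 ± 0.12 (unadjusted p = 0.0871), so its sign rests on them. Leaving out the lowest HF and the highest HF-Q liver lowers the difference by the choice itself, so this p is no test.

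Gstt3, a theta-class enzyme, ranged from -1 to 0.65 in HF (median 0.2) and from -0.88 to 0.36 in HF-Q (median -0.083). Here HF replicate 2 and HF-Q replicate 7 were each the lowest of their group by a wide margin. With all livers the log2 fold change was -0.23 ± 0.16 (SE; limma p = 0.153, adjusted p = 0.939). It was -0.35 with HF replicate 2 left out and -0.15 with HF-Q replicate 7 left out. Without both livers it was -0.26 ± 0.099 (unadjusted p = 0.015, adjusted p = 0.773). The livers were left out after their values were seen. Leaving out the extremes of this gene narrows its spread by the choice itself, so this p is no test.

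The other 13 transferases, Gsta3, Gsta4, Gstm1, Gstm3, Gstm4, Gstm5, Gstm6, Gstt1, Gstt2, Gstk1, Gsto1, Mgst1 and Mgst3, each had an unadjusted p of 0.05 or more. Mgst3, a microsomal enzyme, came next in spread after the 3 above, from -1.02 in HF replicate 2 to 0.65 in HF-Q replicate 7. The brightest Gstm1 probe is placed by the array files on chromosome 5 (chr5:117082490-117082549, mm9) and a second one on chromosome 3 (chr3:107815595-107815654), where the other mu-class probes lie. They gave 0.00597 and 0.0186, both within the spread.

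The thioredoxin system reduces protein disulfides and peroxiredoxins with electrons from NADPH. Txn1 and Txn2 are the cytosolic and mitochondrial thioredoxins, Txnrd1 and Txnrd2 their reductases, and Srxn1 repairs overoxidized peroxiredoxins. None of the 5 had an unadjusted p under 0.05 (lowest 0.365, Txn2).

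Srxn1, a strongly inducible NRF2 target, ranged from -0.15 to 0.34 in HF (median 0.15) and from -0.18 to 0.39 in HF-Q (median -0.00794). In HF-Q 7 of 10 livers lay below the HF median, while replicates 7 and 10 were among the highest of all. Its difference of -0.063 ± 0.07 (SE, log2) was within the spread.

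Txnrd1, also a target of NRF2, was among the most even members, from -0.14 to 0.072 in HF (median 0.031) and from -0.20 to 0.22 in HF-Q (median 0.018). Its log2 fold change was -0.00392 ± 0.041 (SE), with a 95% interval from -0.0886 to 0.081 and a sign that turned under 5 alternatives. Txn2 lay between -0.12 and 0.071 in HF (median -0.059) and between -0.18 and 0.062 in HF-Q (median -0.086). Its log2 fold change of -0.032 ± 0.035 (SE) was within the spread and changed sign with median centring or the deposited values, and 4 HF-Q livers lay below all HF livers.

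Peroxide and superoxide removal held the lowest p in both directions. Peroxiredoxins (Prdx) and glutathione peroxidases (Gpx) reduce peroxides, catalase (Cat) splits hydrogen peroxide in peroxisomes, and Sod1 and Sod2 convert superoxide in cytosol and mitochondria.

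Prdx4, the peroxiredoxin of the endoplasmic reticulum, was the member with the lowest p. Its probe lies at chrX:151758471-151758530 (mm9). It was -0.30, -0.058 and 0.086 at the lowest, median and highest in HF, and -0.10, 0.063 and 0.22 in HF-Q. Of the HF-Q livers 9 of 10 were above the HF median and 3 above every HF liver, and 5 HF livers were below every HF-Q liver. The means were -0.0753 ± 0.11 (SD, n = 11) and 0.0628 ± 0.0931 (SD, n = 10).

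The log2 fold change of Prdx4 was 0.14 ± 0.046 (SE), or 1.1-fold higher (limma p = 0.00639, adjusted p = 0.737). It was 0.13, 0.061 and 0.20 within slides 1, 2 and 3, and 0.12 to 0.16 with any 1 liver left out (unadjusted p at most 0.015). A second, dim probe for another Prdx4 transcript gave -0.043 ± 0.059, and the mean of both probes gave 0.047. The dim probe was well above background in 7 HF and 4 HF-Q livers. It thus met the filter mostly through the group in which it was higher, and no p is given.

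Prdx6, a cytosolic peroxiredoxin that uses glutathione and also has phospholipase activity, was lower in HF-Q. It was 0.096, 0.26 and 0.37 at the lowest, median and highest in 11 HF livers, and -0.27, 0.12 and 0.27 in 8 HF-Q livers, as the spots of 2 HF-Q livers were left out. HF-Q replicate 7 stood alone at the low end, and 5 HF livers lay above every HF-Q liver. The means were 0.255 ± 0.0865 (SD, n = 11) and 0.106 ± 0.169 (SD, n = 8). HF-Q differed from HF by a log2 fold change of -0.15 ± 0.058 (SE), or 1.11-fold lower (limma p = 0.0181, adjusted p = 0.787).

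The 4 Prdx6 probes all gave a lower level in HF-Q, from -0.15 to -0.098. Within slides 1, 2 and 3 the difference was -0.13, -0.14 and -0.17. It was -0.096 without HF-Q replicate 7 (unadjusted p = 0.045), and the unadjusted p was 0.244 on the deposited values. Prdx1, Prdx2, Prdx3, Prdx5, Cat, Sod1, Sod2, Gpx1 and Gpx4 each had an unadjusted p of 0.05 or more. Sod1 was the most even of all members, with an SD of 0.0532 over the livers and a 95% interval of its difference from -0.067 to 0.07.

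NADPH feeds both glutathione and thioredoxin reductases. G6pdx and Pgd form it in the oxidative pentose phosphate pathway, and Taldo1 and Tkt carry the sugars of its non-oxidative branch. Taldo1 had the lowest p of the 4, at 0.557. It lay between -0.30 and 0.035 in HF (median -0.076) and between -0.29 and -0.00644 in HF-Q (median -0.13), ranges that nearly coincide. Its log2 fold change was -0.026 ± 0.043 (SE), with the opposite sign under median centring or the deposited values. The 95% intervals of G6pdx, Pgd and Tkt also crossed 0.

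Single livers moved many members at once. HF-Q replicate 7 had the highest or lowest level of all livers for 23 of 46 members, 16 highest and 7 lowest. That is 50% of the members, against 13.7% of all genes for which it was an extreme. Its highest included Gsta2, Gsta4, Gstm1, Gstm3, Gstm4, Gstp1, Mgst3, Gss, Gsr, Txnrd1, Ephx1 and Blvrb, and its lowest were Gstm6, Gstt1, Gstk1, Mgst1, Txn2, Prdx5 and Prdx6. HF replicate 2 had the lowest level for 11 members, among them Gsta2, Gsta3, Gstm1, Gstt3, Mgst3, Txn1 and Gpx1, and the highest for 0. Over all genes it was the lowest for 7.77% and the highest for 7.78%. The liver at the ends of the range for the most genes of all 19716, HF-Q replicate 10 (22.6%), was an extreme for 7 members (15.2%). Of the other livers HF replicate 3 had the most members, with 9. HF replicate 2 and HF-Q replicate 7 were both on slide 3. In HF replicate 2 the mean of 9 Kupffer cell markers (-0.62) and of 6 lymphocyte or neutrophil markers (-0.77) was the lowest of all livers, while in HF-Q replicate 7 they were -0.0908 and -0.28. Their part in the levels was not tested.

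**Figure D3:**
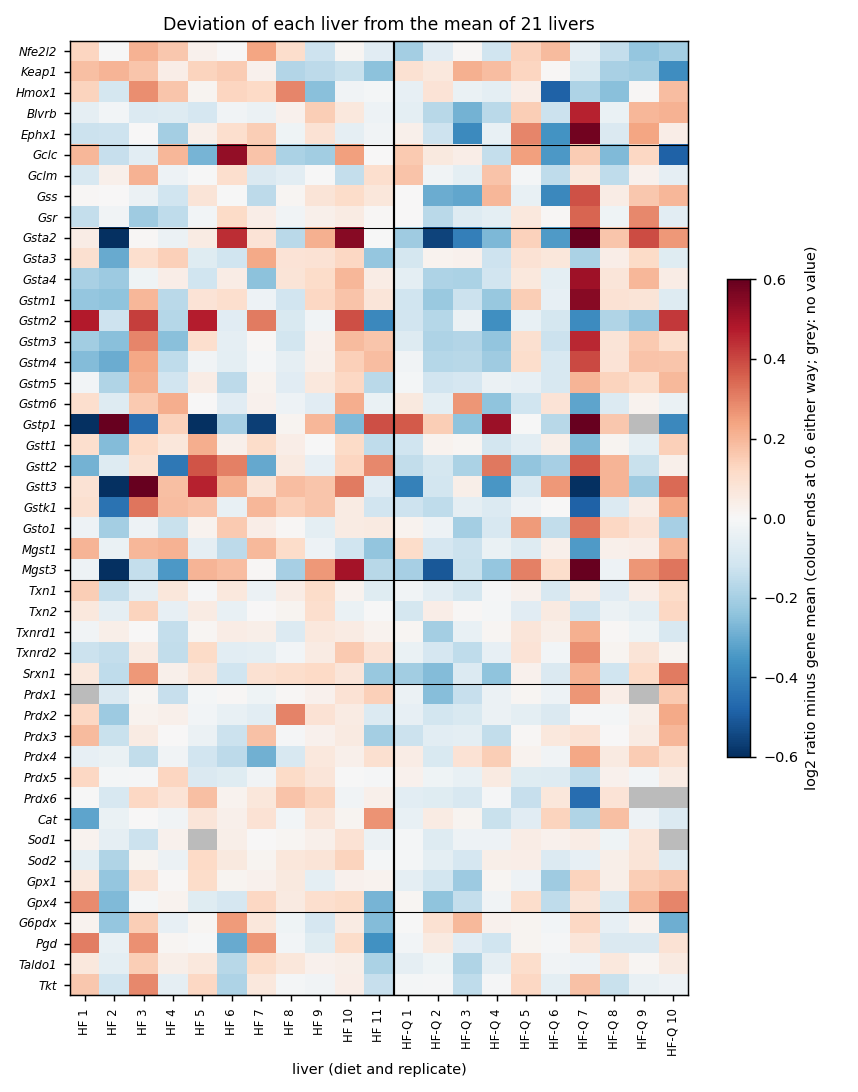
Deviation of each liver (columns, HF left and HF-Q right) from the mean of all livers for each of the 46 members (rows, by role), as a difference of log2 ratios. HF-Q replicate 7 has many red and several blue cells, and HF replicate 2 is blue for Gsta2, Gstt3 and Mgst3.

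Without these 2 livers, an analysis chosen after their values were seen, 42 of 46 members were lower in HF-Q (91.3%), against 52.9% of all genes, and the median was -0.039 against -0.00429. The unadjusted p was under 0.05 for 1 higher and 4 lower members (10.9%, against 5.83% of all genes), and again 0 genes passed the adjusted test. The 4 lower were Nfe2l2, Prdx6, Gstt3 and Gstk1, and the higher was Prdx4. Only Prdx4, Gstp1, Gsr and Gstm5 remained higher. Members vary together between livers, as described next, so this count is not a count of separate observations. The 2 livers were picked from the members' own levels. Leaving out an HF liver low for many members, or an HF-Q liver high for many, lowers their difference by the choice itself. All genes were not picked in this way, so the shares in this paragraph are a description and no test. Without HF replicate 2 alone 35 members were lower (52.8% of all genes were), and 2 higher and 7 lower members had an unadjusted p under 0.05 (7.11% of all genes did). Without HF-Q replicate 7 alone 38 were lower (53.2% of all genes), with 1 higher and 2 lower at that p (4.54% of all genes).

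**Figure D4:**
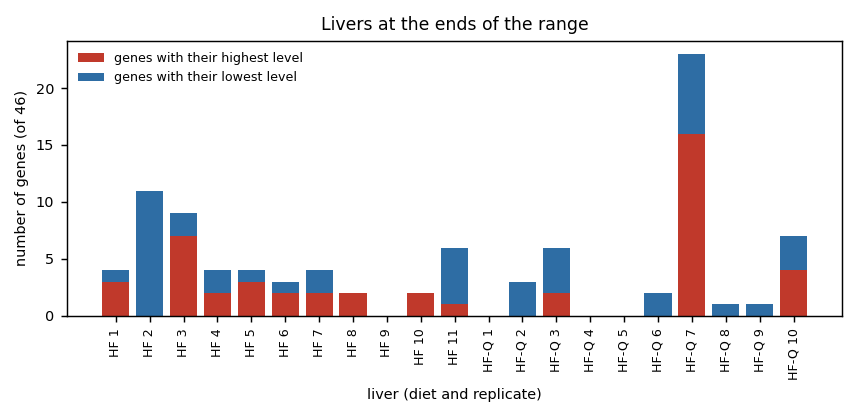
Number of members whose highest (red) or lowest (blue) level among all livers falls in each liver. HF-Q replicate 7 holds 23 and HF replicate 2 holds 11.

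How the members vary among themselves was examined across the 21 livers for the 42 members with a value on every array (all tested members but Prdx1, Prdx6, Sod1 and Gstp1). Of 861 pairs, 144 (16.7%) had a Benjamini-Hochberg adjusted permutation p of Pearson's r under 0.05, 133 of them positive and 11 negative. The smallest r among them was 0.548 in size. That size was reached by 18.2% of the pairs of members and by 3.67% of all pairs of the 19224 genes with a value on every array. The median r was 0.182 over the members and 0.001 over all genes, a description without a test, since the members were chosen as one system. For 89 pairs Spearman's rho passed too. The sign of r was the same within both diets for 141 of the 144 and within all slides for 131. Pearson's r was over 0.7 for 49 pairs with all livers and for 28 without HF replicate 2 and HF-Q replicate 7.

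The 5 highest correlations all involved transferases. Gstm3 and Gstm4 had r = 0.966 and rho = 0.951, Gstm1 and Gstm3 r = 0.915 and rho = 0.858, and Gstt1 and Gstt3 r = 0.908 and rho = 0.86. Gstm3 and Txnrd2, the mitochondrial thioredoxin reductase, had r = 0.907 and rho = 0.887, and Gsta2 and Mgst3 r = 0.904 and rho = 0.847. Each had the smallest permutation p that 100000 resamples can give, 1e-05 (adjusted 0.000783 for r and 0.00123 for rho). Without the 2 livers farthest from the median of the first gene r was 0.947, 0.866, 0.822, 0.899 and 0.784 in that order. Within the slides r was 0.597 at the lowest (Gsta2 and Mgst3, slide 1) and 0.984 at the highest. The mu-class genes are similar in sequence, and the part of shared probe targets in their correlation was not tested.

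The 6 pairs among Gclc, Gclm, Srxn1 and Txnrd1, established NRF2 targets, did not pass. They had r from -0.154 to 0.195, with adjusted permutation p of at least 0.591. Over all 42 members, the number of partners past the threshold was 0 for Gclm and Hmox1, 1 for Nfe2l2, 2 for Gclc, 3 for Txnrd1 and 13 for Srxn1, against 15 for Gsta2 and 14 for Txnrd2, the highest counts. The closest partner of Srxn1 was the mitochondrial peroxiredoxin Prdx3 (r = 0.779, adjusted 0.00203), a pair singled out after its value was seen. The median r over the 120 pairs of transferases was 0.251 with 39 passing, and over the 10 pairs of the thioredoxin system 0.168 with 1 passing. Of the 6 pairs of NADPH genes 3 passed, those among Pgd, Taldo1 and Tkt, which were singled out after their values were seen.

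The most negative correlation joined 2 of the members at an unadjusted p under 0.05. Nfe2l2 and Prdx4 had r = -0.663 and rho = -0.686 (permutation p 0.00094 and 0.00103, adjusted 0.0126 and 0.0202). Over both diets together, livers with a high Nfe2l2 transcript level tended to have a low Prdx4 level. The means of the 2 genes also differed between the diets in opposite directions, which enters this r. On deviations from the mean of each diet r was -0.544, smaller in size than any r that passed, and was not tested. Pearson's r was -0.716 within HF and -0.388 within HF-Q, -0.802, -0.354 and -0.727 within the slides, and -0.537 without the 2 livers farthest from the median of Nfe2l2. Ephx1 and Gstm6 had r = -0.632 (adjusted 0.0237), and -0.312 without the 2 livers farthest from the median of Ephx1. Cat and Gpx4 had r = -0.592 (adjusted 0.0341) and -0.338 by the same step. In these last pairs rho did not pass (adjusted 0.156 and 0.124), and the relation rests in part on those livers.

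**Figure D5:**
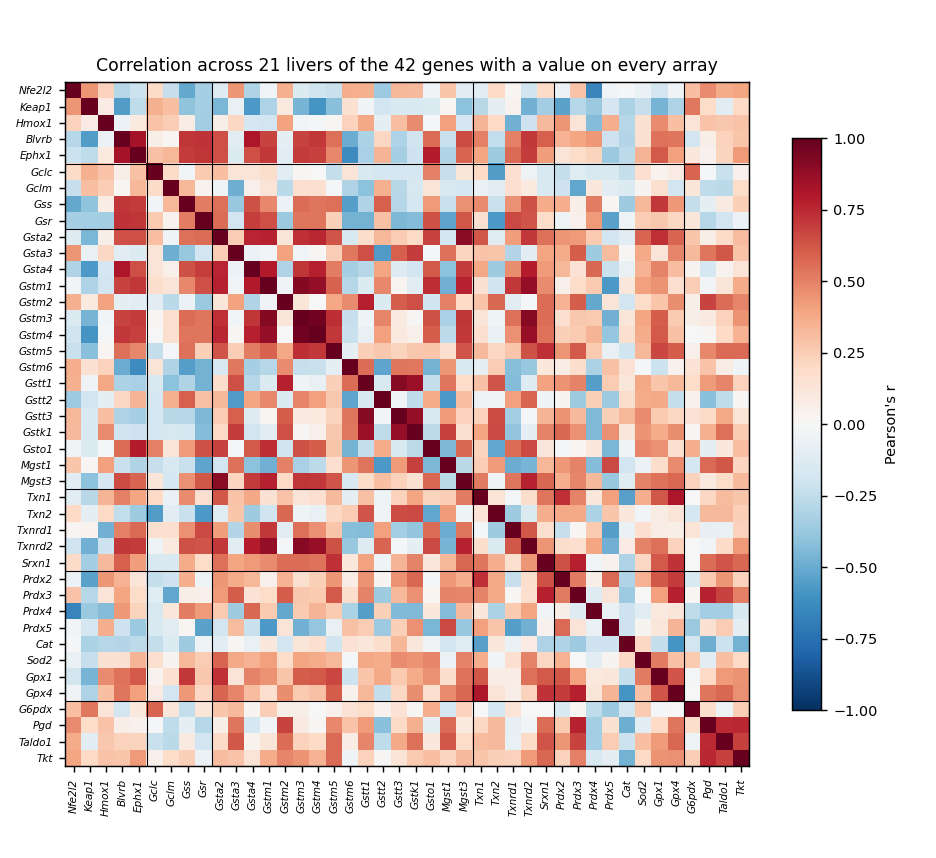
Pearson's r across the 21 livers for all pairs of the 42 members with a value on every array, in order of role with lines between roles. Gstm1, Gstm3, Gstm4 and Gstm5 form a red block with Gsta2, Gsta4, Mgst3 and Txnrd2, which Gstm2 and Gstm6 do not join, and the row of Gclm is pale.

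The wider pathway was read from 59 other genes of NRF2 regulation, its targets, glutathione and selenium enzymes and NADPH supply, of which 54 were tested. Leaving out Gpx2, described below, 24 were higher and 29 lower, and 0 higher and 2 lower had an unadjusted p under 0.05 (3.77%, against 5.95% of all genes). None passed the adjusted test. The lowest p belonged to Gstz1, a zeta-class transferase of tyrosine breakdown, which was lower by a log2 fold change of -0.18 ± 0.055 (SE; limma p = 0.00395, adjusted p = 0.736), and to Glrx5, a mitochondrial glutaredoxin of iron-sulfur cluster assembly, at -0.14 ± 0.047 (p = 0.00564, adjusted p = 0.736). The same sign was found for both within each slide. Ftl1, the ferritin light chain, was at -0.083 ± 0.042 and Nnt at -0.095 ± 0.051, and the place of its probe relative to the deletion of the strain was not examined.

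On the other side stood Gpx2, a glutathione peroxidase known from gut epithelium, at 0.10 ± 0.049. Its probe was well above background in 4 HF and 7 HF-Q livers, so it met the filter mostly through the group in which it was higher, and no p is given. Gstcd was at 0.11 ± 0.057, Akr1b8, an aldo-keto reductase, at 0.09 ± 0.052 and Gstp2, the close relative of Gstp1, at 0.36 ± 0.21. Nqo1, the quinone reductase often used to read NRF2 activity, was at -0.022 ± 0.078 and is named outside the rule. Ugt1a6a, Ggt1, Mgst2 and Hpgds were not bright enough to be tested, and no probe was matched to Gsta1.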

How the data were processed

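Liver RNA (200 ng) of 21 mice was hybridised to 2-colour Agilent arrays by the authors, who excluded 3 of 24 arrays for uneven hybridisation, per the labels. The deposited scanner files hold spot and background intensity in both channels, not normalized, and 0 or 1 flags, per the file headers, and were made with Agilent Feature Extraction 10.7.3.1, per the submitters' processing notes. A second deposited file, of log2 values per array, correlated with the log2 Cy5 signal at 0.985 to 0.999. With the log2 Cy3 signal the correlation was 0.980 to 0.992. Every column has a median of 7.92, by a step not given in the sources used here.

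Background was corrected with normexp (offset 50) and ratios by loess within each array (limma 3.58.1, R 4.3.3). Control and flagged spots were left out, and spots of a probe averaged. A probe was kept if well above background in Cy5 on at least 10 of 21 arrays, and the brightest stood for a gene. Normexp with an offset draws ratios of dim genes toward 0. The diets were compared by the moderated test of limma, two-sided, with Benjamini-Hochberg adjustment over 19716 genes. Correlations had 100000 permutations. Coordinates of probes come from the array files (mm9), and RefSeq (GRCm38.p6) gave symbols and promoters only.

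Members and lists were chosen with earlier results of these data known. Shown liver by liver were Nfe2l2, Keap1, Hmox1, Gclc, Gclm, Srxn1 and Txnrd1, the 3 members of lowest p per direction, the lowest of each role and the 3 of largest SD; of the other pathway genes, up to 4 of lowest p per direction. For pairs, the 5 highest and 3 lowest r and those among Gclc, Gclm, Srxn1 and Txnrd1 were named. In simulated data for this comparison (19716 independent genes, 200 changed), 54% of log2 changes of 0.25 and 94% of 0.5 were recovered. The changed genes were drawn at random from all genes, whose median SD over the livers was 0.126. That SD was 0.143 for the members and 0.191 for the transferases, and recovery for the members themselves was not simulated. Alternatives changed the background, normalization, filter, probe, variance model, weights, slide, replicate number, threshold and single livers. The labels give mice as replicates.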

Additional observations from a re-analysis of the deposited data

Results flagged for a closer look

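In the HF-Q group, 7 of 54 genes searched had a liver set apart from the rest by a gap that is large for the group's range (Dixon's criterion), which chance gives in about 1 group in 20. Not all genes were searched, so this count has no share over all genes beside it and is not read as a result about the members. The genes vary together, and some were picked for a low p. Of all genes, HF-Q replicate 7 was an extreme among all livers for 13.7% and HF-Q replicate 10 for 22.6%. The HF group, with 11 livers, was not searched. Replicate 7 was the low liver for Prdx6, at -0.27 with the next at 0.051, and for Gstz1, at -0.36 with the next at -0.13, and it was the high liver for Gstm1, at 0.64 with the next at 0.25. Without it the log2 fold change of Prdx6 went from -0.15 to -0.096 that of Gstz1 from -0.18 to -0.14, and that of Gstm1 from 0.00597 to -0.054, a change of sign. Replicate 10 was the high liver for Gstm2, at 0.52 with the next at 0.063, and for Prdx2, at 0.14 with the next at -0.051. It was the low liver for G6pdx, at -0.39 with the next at -0.15, and for Nnt, at -0.19 with the next at -0.07. Without it the log2 fold change went from -0.23 to -0.29 for Gstm2, from -0.035 to -0.062 for Prdx2, from 0.022 to 0.056 for G6pdx and from -0.095 to -0.078 for Nnt.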

How the results depend on the processing

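No member passed the adjusted test under any alternative. Of all genes, 1 passed with array weights and 1 within slide 2, and 0 to 4 with 1 liver left out (4 without HF replicate 2, 1 without HF-Q replicate 10). Members at an unadjusted p under 0.05 numbered 4 (5.95% of all genes), but 0 with median centring (1.22% of all genes), 2 with the mean of probes (5.94%), 7 with array weights (8.96%), 1 within slide 1 (6.88%), 1 within slide 2 (3.62%), and 2 to 9 with 1 liver left out: 9 without HF replicate 2 (7.11%), and 2 without HF replicate 3 (4.71%) or 7 (5.43%) or HF-Q replicate 1 (4.92%) or 9 (4.95%). Within slide 3, which held HF replicate 2 and HF-Q replicate 7, they were 2 higher and 4 lower (4.81% of all genes). The median of the transferases moved from 0.00597 to 0.151 within slide 3. That of peroxide and superoxide removal moved from -0.0243 to 0.0538 with median centring. Over all 46 members the sign turned for 19 with median centring, 11 with the deposited values, 10 with array weights, 16 within slide 1, 16 within slide 2 and 11 within slide 3. For the genes shown one by one the turned values follow, and the causes were not tested. With median centring Keap1 was 0.0103, Gclm 0.0357, Txnrd1 0.0487, Txn2 0.0406, Taldo1 0.041 and Ftl1 0.00692. With the deposited values Gclm was 0.00719, Txnrd1 0.0133, Txn2 0.00396 and Taldo1 0.0137. Array weights gave Keap1 0.0149, Gclm 0.00311 and Gsta2 -0.0756, the Cy5 signal alone gave Txn2 0.133, and the slide as a block gave Txnrd1 0.00461. Within slide 1 Srxn1 was 0.0284 and Gsta2 -0.0426. Within slide 2 Keap1 was 0.0978, Gclc 0.0102, Gclm 0.113, Txnrd1 0.00662, Taldo1 0.0354 and Gsta2 -0.347. Within slide 3 Gclm was 0.0517, Txnrd1 0.0459 and Nnt 0.0612. Without HF replicate 2 and HF-Q replicate 7 Gsta2 was -0.211. With 1 liver left out Gclm ran from -0.0236 to 0.0164, Gsta2 from -0.105 to 0.0885, Keap1 from -0.0616 to 0.00445 and Txnrd1 from -0.0278 to 0.0185, and the median of the members from -0.0296 to -0.000402. Nfe2l2, Prdx4, Prdx6, Gstm2, Hmox1, Gstp1, Gsr and Gstt3 kept their sign under all 17 alternatives and with any liver left out. Several of the 17 could not turn a sign. The trend and robust variance setting leaves the estimate as it is. The filters for saturation and for signal on all arrays kept the same probe of each member. The labels name no pairs of mice by replicate number, and same-numbered livers had correlations from -0.337 to 0.158, though Keap1 followed the replicate order in both diets. With the replicate number as a block 0 genes passed, 0 members passed, 5 members had an unadjusted p under 0.05 (5.76% of all genes), and Gclm was 0.00551. Quantile normalization of the average signal leaves ratios as they are by construction. The number of arrays limits the precision.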
